A study of Mus musculus with 6 samples.

Results

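The unfolded protein response and protein folding in the endoplasmic reticulum (ER) were examined through 35 genes in the mouse uterus with and without epithelial Sox17. The genes were taken from a list of ER stress sensors, the transcription factors below them, ER chaperones, disulphide isomerases and lectins, ER-associated degradation (ERAD) components and subunits of the translocon. Genes entered the list by their known role, with earlier results of these data known, and all 35 were among the 14847 genes tested on the arrays. All 35 were well above background on each of the 6 arrays. At gestation day (GD) 3.5 of natural pregnancy, RNA from 3 control uteri (Sox17 f/f) and 3 uteri deleted for epithelial Sox17 (Sox17 ed/ed) was hybridised to 1-colour Agilent mouse expression arrays, with 1 array for each uterus. Females were mated at 8 to 10 weeks of age, and the uteri held no embryos when they were frozen. Both genotypes carried floxed Sox17 alleles. The Sox17 ed/ed mice also carried Ltf-iCre, an improved Cre placed at the lactotransferrin locus that is active in adult uterine epithelium, whereas the controls are given as Sox17 f/f alone and marked as wild type in the labels. RNA came from the whole organ, so epithelium, stroma, muscle and blood cells all contributed to each value.

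The unfolded protein response adjusts the folding capacity of the ER to its load of secreted and membrane proteins. The sensors ATF6, IRE1 (gene Ern1) and PERK (gene Eif2ak3) span the ER membrane. ATF6 is cut to release a transcription factor, IRE1 splices the Xbp1 mRNA, and PERK phosphorylates a translation initiation factor, which favours translation of Atf4. Their targets include chaperones such as BiP (gene Hspa5), which binds unfolded proteins, and ERAD genes, whose products send misfolded proteins to the proteasome. Secretory cells, including uterine glands and plasma cells, depend on this machinery. The arrays measured RNA abundance and gave no reading of Xbp1 splicing, ATF6 cleavage or phosphorylation.

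ATF6 and XBP1 reach many of these genes through the ER stress response element (ERSE), in which CCAAT and CCACG lie 9 bases apart (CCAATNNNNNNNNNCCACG). The element was searched on both strands of 300 bases around the annotated start of each gene, from 250 bases before it to 50 after it, in RefSeq promoters of GRCm38.p6. Promoters were matched for 29 of the 35 genes, and 9 of the 29 (31.0%) held an ERSE, compared with 37 of 27025 genes (0.137%) in the whole table. The 9 genes were Calr, Canx, Creld2, Derl3, Dnajc3, Hsp90b1, Hspa5, Pdia6 and Syvn1. The related ERSE-II (ATTGGNCCACG) was found in Herpud1 and Dnajb11 among the 29, and in 12 genes (0.0444%) of the table. Atf6, Hyou1, Manf, Sec61a1, Derl1 and Creb3l1 were not matched. The sites below belong to the chaperone genes Hspa5 and Hsp90b1, the lectin gene Calr, Derl3 and the ERSE-II genes. Derl3 was the only member whose rise passed the test given below. Sequences run 5′ to 3′ along the strand that reads CCAAT before CCACG, or ATTGG before CCACG, and capitals mark these blocks.
Hspa5: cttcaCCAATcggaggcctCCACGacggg
Hsp90b1, first site: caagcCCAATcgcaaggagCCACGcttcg
Hsp90b1, second site: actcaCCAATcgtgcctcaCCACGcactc
Calr: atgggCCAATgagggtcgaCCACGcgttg
Derl3: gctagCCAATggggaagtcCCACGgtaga
Herpud1: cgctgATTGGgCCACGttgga
Dnajb11: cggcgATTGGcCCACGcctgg
The Hspa5 site lay at chr2:34772020-34772048 on the plus strand, and its element began 65 bases before the gene's start. The Hsp90b1 sites lay at chr10:86705633-86705661 on the minus strand and chr10:86705528-86705556 on the plus strand, 212 and 107 bases before the start. The Calr site was at chr8:84847070-84847098 on the plus strand, 162 bases before the start, and the Derl3 site at chr10:75893237-75893265 on the minus strand, 156 bases before it. Of these, the second Hsp90b1 site, the Calr site and the Derl3 site read against the direction of the gene. The Herpud1 element was at chr8:94386372-94386392, 52 bases before the start, and the Dnajb11 element at chr16:22857847-22857867, past the start, both on the plus strand. A match describes these letters and was not tested as a binding site.

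Sox17 was measured first, as a check of the genotypes. Its normalized log2 signal was 12.21, 12.07 and 12.22 in the Sox17 f/f uteri and 9.75, 9.59 and 9.81 in the Sox17 ed/ed uteri. Sox17 thus differed by -2.45 on the log2 scale (SE 0.09, n = 3 per genotype, limma adjusted p = 2.66e-05). In bulk tissue, fewer cells of a type and less RNA per cell cannot be told apart. Markers of uterine epithelium, endometrial stroma and smooth muscle were measured in full (8 of 8, 7 of 7 and 6 of 6 genes). The 5 glandular markers fell in every case, from a summed normalized signal of 33625 to 53704 to one of 121 to 195, where Prss29, named with its value seen, did not stand well above background in any Sox17 ed/ed uterus. Of the 8 epithelial markers, 4 rose and 1 fell (summed signal 47298 to 49175 against 50364 to 62377). One stromal marker of 7 fell, as did 2 of 6 smooth muscle markers and 3 of 5 endothelial markers, while 2 of 4 tested squamous markers and 1 of 5 tested macrophage and leukocyte markers rose. The 2 squamous markers were Krt5 and Krt15, named with their values seen. Neither stood well above background in any Sox17 f/f uterus. The other tested squamous markers were well above background in all 3 and did not pass. These were Trp63 (log2 fold change -0.12, limma adjusted p = 0.468) and Krt14 (0.30, 0.271). By the test given below, 8.84% of all genes rose and 10.1% fell. The part of these tissue differences in the results below was not tested.

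Of the 35 genes, 3 passed the test (adjusted p under 0.05 in limma, two-sided, adjusted over all genes). Derl3 rose in the Sox17 ed/ed uterus, and Agr2 and Creb3l4 fell. This is 8.57% of the genes, against 18.9% of all genes tested (8.84% of all genes were higher and 10.1% lower). The same 3 genes met the thresholds of the study's methods (unadjusted p under 0.01 and a fold of at least 1.4), which 12.5% of all genes met. At an unadjusted p under 0.05 the count was 8 of 35 (22.9%), against 33.9% of all genes. The log2 fold change was below 0 for 27 genes (77.1%, against 50.3% of all genes), with a median of -0.13 against -0.0016 over all genes. The median size of the change regardless of sign was 0.14, and 0.17 over all genes. The values of the groups did not overlap for 9 genes (25.7%), against 40.6% of all genes. The 6 of these 9 that missed the test were Hsp90b1, Atf6, Xbp1, Dnajb9, Edem1 and Creb3l2, and each was lower in the Sox17 ed/ed uteri.

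The size of change that the data allow was read from 95% confidence intervals. For 21 of the 35 genes (60.0%, against 56.9% of all genes) the whole interval lay within 1.4-fold in both directions. For 11 of the genes that missed the test the interval reached beyond 1.4-fold, so the data allow a change of that size. These were Hspa5, Hsp90b1, Ddit3, Atf4, Xbp1, Dnajb9, Dnajc3, Hyou1, Sdf2l1, Creld2 and Trib3. For 9 of them the interval passed 1.4-fold only on the lower side, the exceptions being Ddit3 and Sdf2l1, where it did so only on the upper side.

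**Figure D1:**
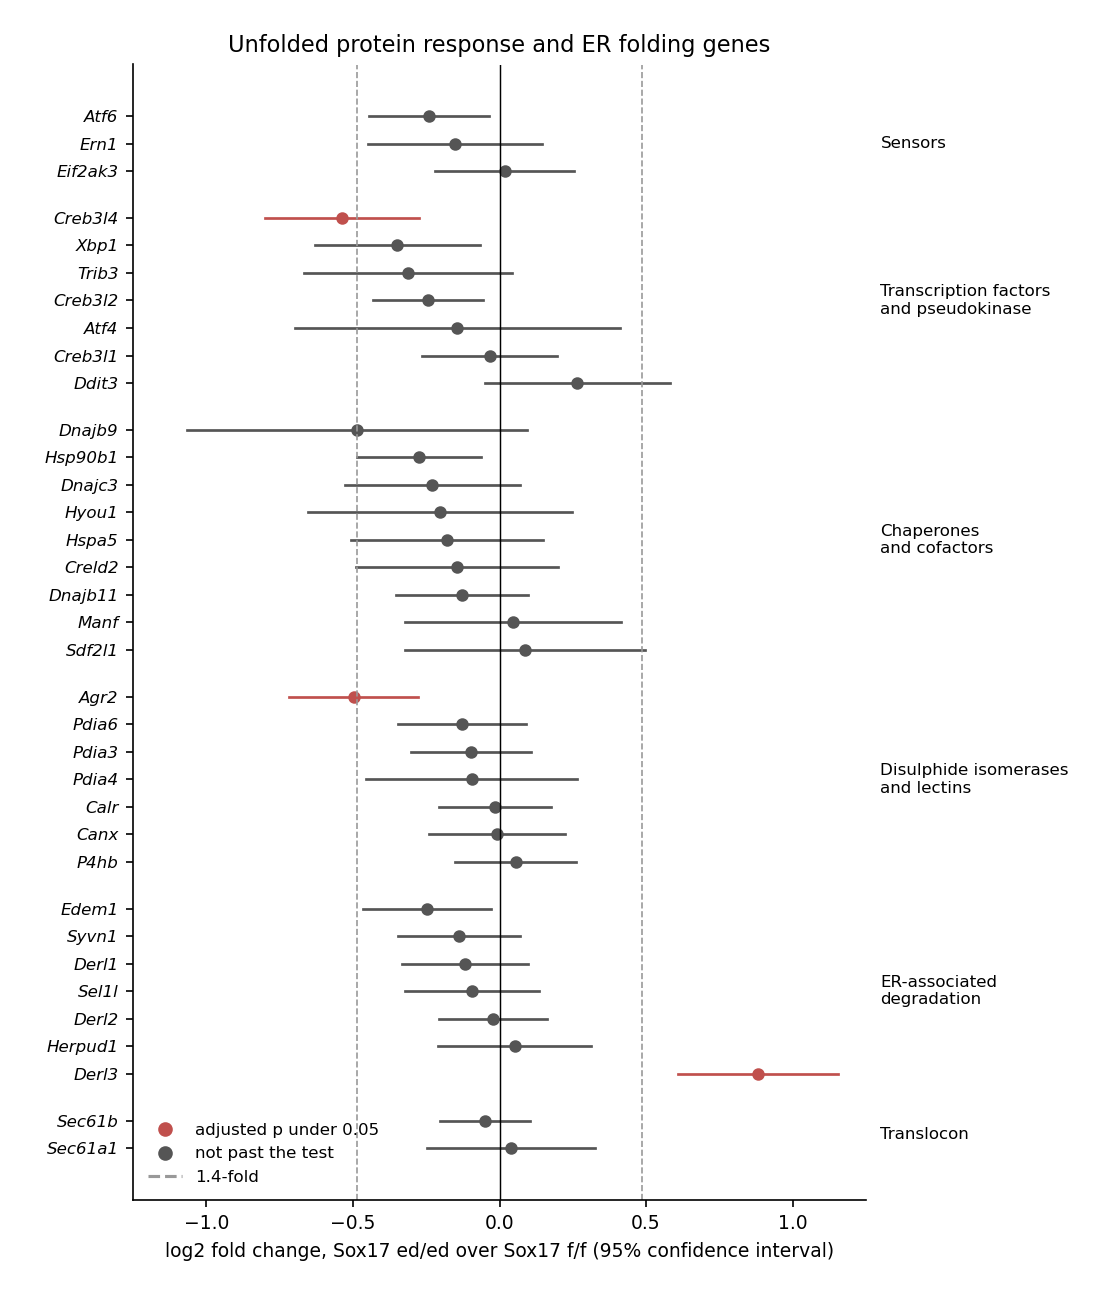
Log2 fold change of each of the 35 genes (horizontal axis, Sox17 ed/ed over Sox17 f/f), grouped by role. Points are limma estimates from 3 arrays per genotype, bars are 95% confidence intervals, red marks an adjusted p under 0.05 and dashed lines mark 1.4-fold. Derl3 stands to the right at 0.88, Creb3l4 and Agr2 stand to the left at -0.54 and -0.50, and most other points lie a little below 0.

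None of the sensors passed the test. The signal of Atf6 was 8.34, 8.28 and 8.26 in the Sox17 f/f uteri and 7.91, 8.18 and 8.06 in the Sox17 ed/ed uteri. All 3 Sox17 ed/ed values were the lower ones, and the log2 fold change was -0.24 (SE 0.08, adjusted p = 0.103). Ern1, which encodes IRE1, gave 9.39, 9.30 and 8.95 against 9.03, 9.102 and 9.06. The third Sox17 f/f array fell below all the Sox17 ed/ed arrays, so the groups overlapped, and the log2 fold change was -0.15 (95% interval -0.45 to 0.15). Eif2ak3, which encodes PERK, gave 9.45, 9.45 and 9.32 against 9.27, 9.41 and 9.59, with a log2 fold change of 0.02 (interval -0.22 to 0.26). For each of the 3 sensors the interval stayed within 1.4-fold.

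Among the 6 transcription factors and the pseudokinase Trib3, only Creb3l4 passed the test. Creb3l4 encodes a membrane-bound factor of the CREB3 family, which is cut in the Golgi much as ATF6 is. Its signal was 8.43, 8.08 and 8.34 in the Sox17 f/f uteri and 7.65, 7.78 and 7.80 in the Sox17 ed/ed uteri. The highest Sox17 ed/ed value lay below the lowest Sox17 f/f value, and the gene fell by 0.54 on the log2 scale, or 1.45-fold (SE 0.11, adjusted p = 0.0194). The call was lost on leaving out Sox17 f/f replicate 1 (log2 fold change -0.46, adjusted p = 0.0626) or Sox17 ed/ed replicate 1 (-0.49, 0.0677), 2 (-0.55, 0.0532) or 3 (-0.57, 0.0510). Over all 6 such omissions the adjusted p ran from 0.0104 to 0.0677, and over the other alternatives from 0.00723 to 0.0634. It was 0.0595 with replicate number, which is also the column of the slide, as a block. The related factors Creb3l2 (9.24, 9.17 and 9.27 against 9.09, 8.88 and 8.98) and Creb3l1 (11.32, 11.38 and 11.08 against 11.27, 11.24 and 11.16) did not pass. The values for Creb3l2 did not overlap between groups (log2 fold change -0.24, adjusted p = 0.0791), while those for Creb3l1 did (-0.03, adjusted p = 0.842).

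Xbp1, the factor whose mRNA is spliced by IRE1, gave 14.67, 14.77 and 14.72 in the Sox17 f/f uteri and 14.37, 14.16 and 14.59 in the Sox17 ed/ed uteri. The controls lay within a narrow band above all 3 Sox17 ed/ed values. The log2 fold change was -0.35 (SE 0.12, adjusted p = 0.0886). It passed the test without Sox17 ed/ed replicate 3, the highest of that group (-0.46, adjusted p = 0.0382), when arrays were shifted by their 75th percentile (-0.43, 0.0347), with normexp background correction (-0.36, 0.0163) and with an intensity trend in eBayes (-0.35, 0.0314). The adjusted p ran from 0.0163 to 0.164 over all the alternatives that kept 6 arrays, and from 0.0382 to 0.210 over those that left out 1 array.

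Atf4, the factor favoured by PERK signalling, gave 14.35, 14.63 and 13.93 in the Sox17 f/f uteri and 14.07, 13.89 and 14.52 in the Sox17 ed/ed uteri. The groups overlapped widely. The log2 fold change was -0.14 (interval -0.70 to 0.41, adjusted p = 0.705), it was -0.13 at a second Atf4 probe, and it turned to 0.02 without Sox17 f/f replicate 2. Ddit3, which encodes the stress-induced factor CHOP, gave 8.31, 8.28 and 8.59 against 8.86, 8.50 and 8.62. Its interval ran from -0.05 to 0.58 around a log2 fold change of 0.27 (adjusted p = 0.211). Trib3, a pseudokinase induced by CHOP and ATF4, gave 8.82, 8.77 and 9.11 against 8.33, 8.78 and 8.65, with overlap between the groups (log2 fold change -0.31, interval -0.67 to 0.04, adjusted p = 0.192).

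**Figure D2:**
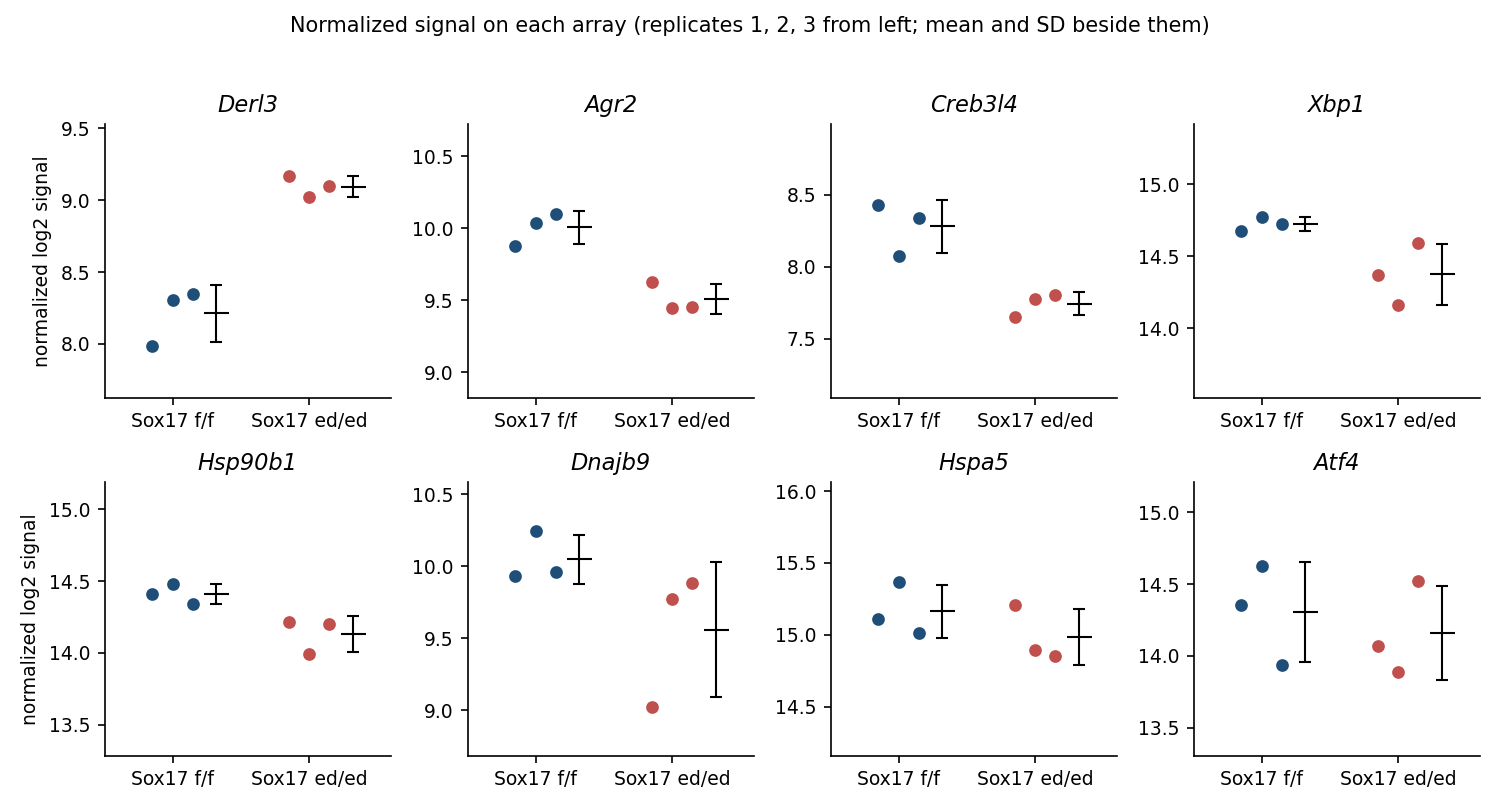
Normalized log2 signal of 8 of the genes on each array (vertical axis, a scale of its own but equal span for each gene), with Sox17 f/f in blue and Sox17 ed/ed in red. Points are single uteri, and the horizontal mark and bar beside them are the mean and SD (n = 3). The groups are apart for Derl3, Agr2, Creb3l4, Xbp1, Hsp90b1 and Dnajb9 and overlap for Hspa5 and Atf4.

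None of the 9 chaperones and cofactors passed the test, and 7 of 9 log2 fold changes were below 0 (median -0.18). Hspa5 gave 15.11, 15.37 and 15.01 in the Sox17 f/f uteri and 15.21, 14.90 and 14.85 in the Sox17 ed/ed uteri. One Sox17 ed/ed value lay inside the control range, and the log2 fold change was -0.18 (interval -0.51 to 0.15, adjusted p = 0.404). Hsp90b1, which encodes the ER member of the HSP90 family, gave 14.41, 14.48 and 14.34 against 14.21, 13.99 and 14.20. The Sox17 ed/ed values were all below the controls, with a log2 fold change of -0.28 (SE 0.09, adjusted p = 0.0773). Hsp90b1 passed the test under the 75th percentile shift (-0.34, adjusted p = 0.0423) and with an intensity trend (-0.28, 0.0257) and gave a smaller change with normexp background correction (-0.09, 0.593), the lowest and highest adjusted p over the alternatives with 6 arrays being 0.0257 and 0.593. Dnajb9, a co-chaperone of BiP that restrains IRE1, gave 9.94, 10.25 and 9.96 against 9.02, 9.77 and 9.89. The low first Sox17 ed/ed array set the size of its log2 fold change, which was -0.49 (SE 0.24, adjusted p = 0.211) with that array and -0.22 without it (0.312). A second Dnajb9 probe gave -0.23, with overlapping groups.

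The other 6 chaperone genes had overlapping groups and log2 fold changes from -0.23 to 0.09. They were Dnajc3, which encodes a cytoprotective co-chaperone of BiP (-0.23), Hyou1, which encodes a large HSP70-like chaperone and exchange factor (-0.20), Creld2 (-0.14), Dnajb11 (-0.13), Manf, an ER stress-responsive secreted factor (0.05), and Sdf2l1, a partner of Dnajb11 (0.09). Manf and Sdf2l1 turned below 0 (-0.06 and -0.07) when Sox17 ed/ed replicate 1 was left out. Manf also did so without Sox17 f/f replicate 3 (-0.07).

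The chaperones varied more between mice of the same genotype than the median gene did. The median of their pooled SD within genotype was 0.20, compared with 0.12 over all genes and over all 35 members. Within the controls, 8 of 9 chaperones were highest in Sox17 f/f replicate 2 and 8 of 9 lowest in replicate 3, where the shares over all genes were 33.2% and 35.8%. Within the Sox17 ed/ed group, 7 of 9 were highest in replicate 1 and 7 of 9 lowest in replicate 2, against 30.6% and 33.7% of all genes. Their median deviation from the genotype mean was 0.20 in Sox17 f/f replicate 2, -0.14 in Sox17 f/f replicate 3, 0.18 in Sox17 ed/ed replicate 1 and -0.15 in Sox17 ed/ed replicate 2. Each of these is of the order of the chaperones' median genotype difference of -0.18. Dnajb9 was an exception, since its lowest Sox17 ed/ed value was on replicate 1. Taking all 35 genes, 22 were highest among controls in replicate 2 and 21 were highest among Sox17 ed/ed uteri in replicate 1. These counts describe genes measured on the same 6 arrays, which are not independent of each other.

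**Figure D3:**
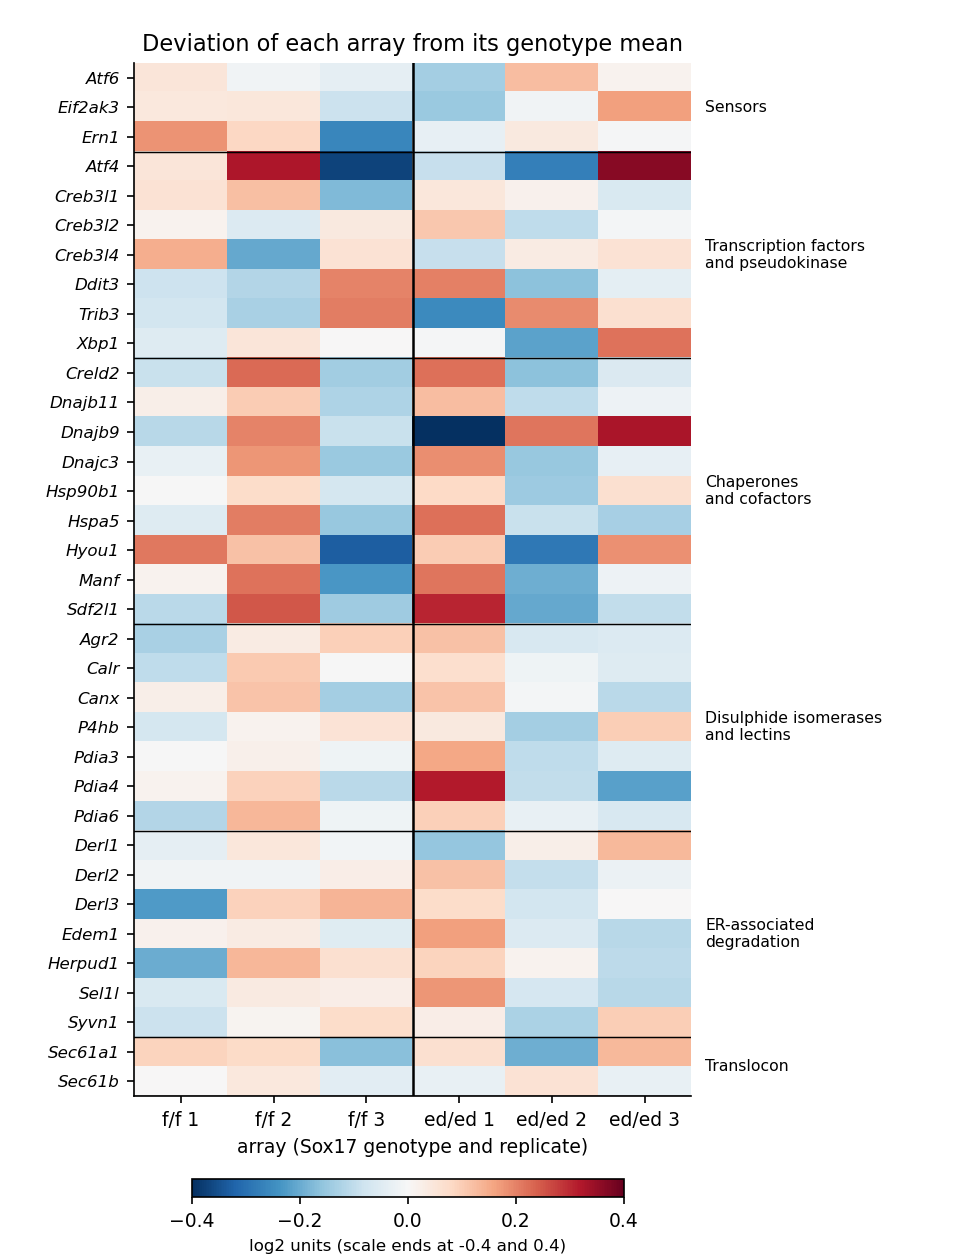
Deviation of each array from the mean of its genotype (colour, log2 units, ending at -0.4 and 0.4) for the 35 genes (rows, by role) on the 6 arrays (columns). Red columns run through most chaperones, isomerases and lectins in Sox17 f/f replicate 2 and Sox17 ed/ed replicate 1, and blue through most chaperones in Sox17 f/f replicate 3 and Sox17 ed/ed replicate 2.

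Of the 7 disulphide isomerases and lectins, Agr2 passed the test. AGR2 is a protein disulphide isomerase of mucus-secreting and glandular epithelia. Its signal was 9.88, 10.04 and 10.10 in the Sox17 f/f uteri and 9.63, 9.44 and 9.45 in the Sox17 ed/ed uteri. The groups did not overlap, and Agr2 fell by 0.50 on the log2 scale, or 1.41-fold (SE 0.09, adjusted p = 0.0138). Without Sox17 ed/ed replicate 3 the change was -0.47 with an adjusted p of 0.0509, which was the highest over the 6 omissions of 1 array (lowest 0.0222). Over the alternatives with 6 arrays its adjusted p ran from 0.00374 to 0.0620, the latter with replicate number, which is also the column of the slide, as a block. The summed signal of the glandular markers, given above, was also lower in all 3 Sox17 ed/ed uteri. Within the controls the order was reversed, with this sum highest in replicate 1 and lowest in replicate 3 (53704 and 33625). Agr2 was lowest in replicate 1 and highest in replicate 3 there. Within the Sox17 ed/ed uteri both were highest in replicate 1 and lowest in replicate 2. The sums of replicates 1 and 3 were close there (195 and 191). They included markers not well above background on every Sox17 ed/ed array (Prss29 on 0, Spink1 and Cxcl15 on 2 of 3), so this order carries little weight. The part of the glandular change in that of Agr2 or Creb3l4 was not tested.

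The other 6 genes of this class had log2 fold changes between -0.13 and 0.05, with overlapping groups, at the brightest probe of each. Calr and Canx, the lectin chaperones calreticulin and calnexin that hold glycoproteins during folding, gave 13.79, 13.99 and 13.89 against 13.94, 13.86 and 13.82, and 13.90, 13.99 and 13.74 against 13.98, 13.86 and 13.76. Both log2 fold changes were -0.01, with intervals of -0.21 to 0.18 and -0.24 to 0.22. The isomerases P4hb, Pdia3, Pdia4 and Pdia6, which form and rearrange disulphide bonds, gave 0.05, -0.10, -0.09 and -0.13. All of these intervals stayed within 1.4-fold. A second, dimmer Pdia6 probe gave a larger change of -0.26 (SE 0.13), with groups that did not overlap. That probe did not pass the test either (limma adjusted p = 0.265 over all probes).

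Derl3 was the only one of the 7 ERAD genes to pass the test, and the only one of the 35 whose rise passed it. It encodes a member of the derlin family, which moves misfolded proteins out of the ER, and it is abundant in professional secretory cells. Its signal was 7.99, 8.31 and 8.35 in the Sox17 f/f uteri and 9.17, 9.02 and 9.096 in the Sox17 ed/ed uteri. The lowest Sox17 ed/ed uterus lay well above the highest control, and Derl3 rose by a log2 fold change of 0.88, or 1.84-fold (SE 0.11, adjusted p = 0.00361). It passed the test under each alternative and each omission of 1 array, with log2 fold changes from 0.73 to 0.95 and adjusted p from 5.46e-04 to 0.0262. The exact two-sided permutation p for Derl3 alone was 0.1, the smallest that 3 arrays against 3 allow.

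Its relatives did not pass. Derl1 gave 10.69, 10.77 and 10.72 against 10.46, 10.63 and 10.74, and Derl2 gave 12.61, 12.61 and 12.65 against 12.72, 12.51 and 12.58. Both pairs of groups overlapped, with log2 fold changes of -0.12 (interval -0.33 to 0.10) and -0.02 (-0.21 to 0.16). The dimmer Derl2 probes gave changes above 0 (0.05 and 0.13) that did not pass the test. At the probe with 0.13 the Sox17 ed/ed values all lay above the controls. The mannose-binding ERAD factor Edem1 gave 10.02, 10.04 and 9.96 against 9.92, 9.70 and 9.65, all below the controls. Its log2 fold change was -0.25 (adjusted p = 0.110), and it passed only without Sox17 ed/ed replicate 1 (-0.33, adjusted p = 0.0495, range over the 6 omissions 0.0495 to 0.246). The ubiquitin ligase gene Syvn1 (-0.14), its partner Sel1l (-0.09) and Herpud1 (0.05), which encodes a scaffold of the same complex, had overlapping groups. The translocon subunits Sec61b and Sec61a1, which form the channel for nascent proteins, gave log2 fold changes of -0.05 (interval -0.20 to 0.11) and 0.04 (-0.25 to 0.33).

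Markers of plasma cells and B cells were read beside Derl3, since plasma cells hold much of the secretory machinery. All 6 tested markers (Jchain, Mzb1, Sdc1, Cd79a, Cd79b and Tnfrsf17, all named with their values seen) had log2 fold changes above 0, between 0.46 and 1.497. Jchain, Mzb1, Sdc1 and Cd79b rose, whereas Cd79a (adjusted p = 0.0645) and Tnfrsf17 (0.0544) did not pass. This is 66.7% of the markers, against 18.9% of all genes past the test in either direction and 8.84% higher. The summed normalized signal of the 6 was 6218 to 11620 in the Sox17 f/f uteri and 16642 to 19263 in the Sox17 ed/ed uteri. Most of this sum came from Jchain on each array. Both Derl3 and this sum were lowest in Sox17 f/f replicate 1 and highest among the controls in replicate 3, whereas among the Sox17 ed/ed uteri Derl3 was highest in replicate 1 and the sum in replicate 3. Of the 6 tested markers of exocrine pancreas, another tissue rich in ER, 2 fell (summed signal 450 to 507 against 357 to 420). Of the 4 mast cell markers 1 fell (summed signal 1737 to 2311 against 877 to 1067). This was Kit, named with its value seen, with a log2 fold change of -1.86. Kit was the brightest of the 4 in each control and made up most of the control sum. The other mast cell markers did not pass (adjusted p from 0.186 to 0.448). The part of plasma cells in the change of Derl3 was not tested.

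**Figure D4:**
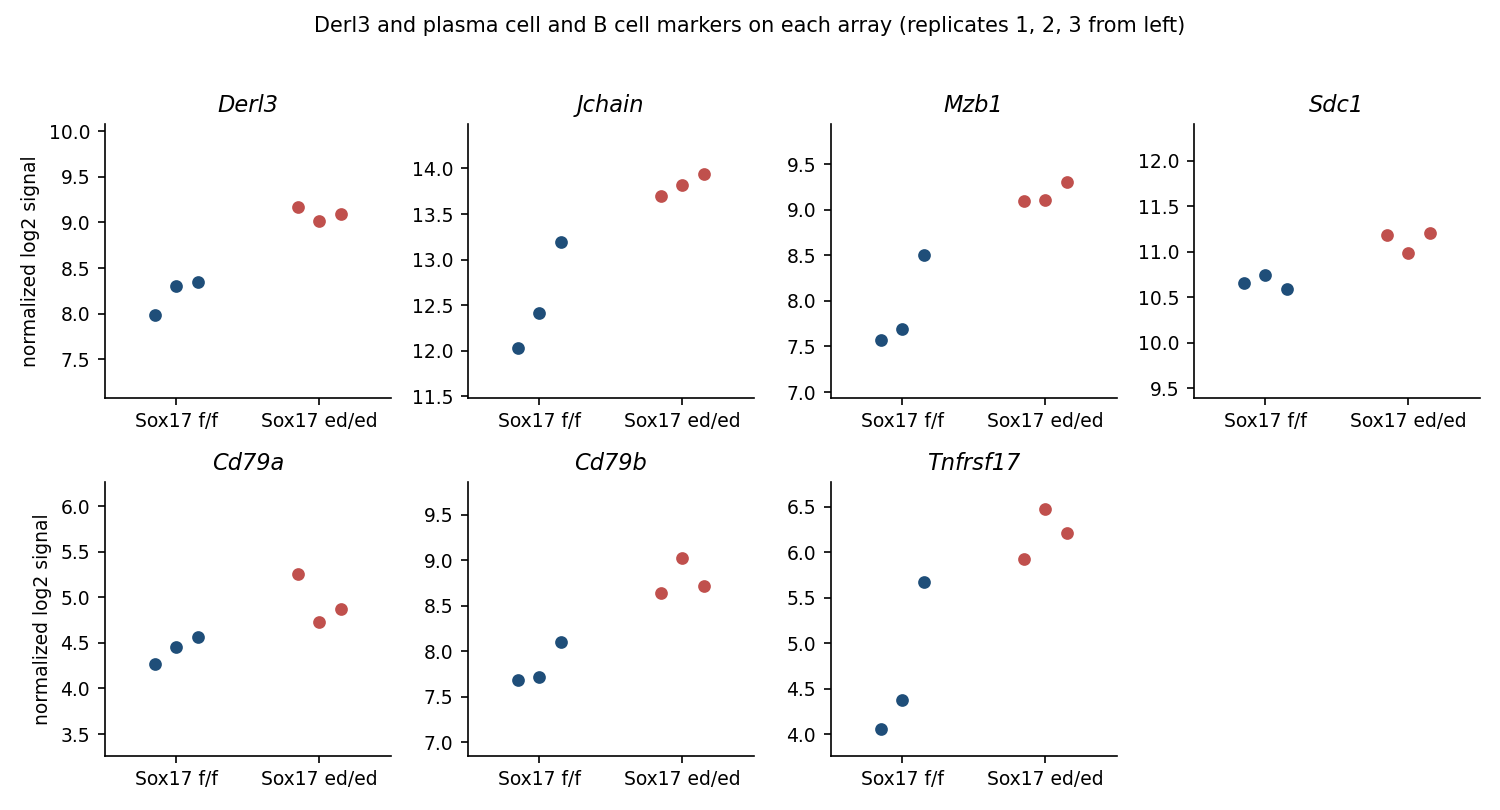
Normalized log2 signal of Derl3 and of the 6 tested plasma cell and B cell markers on each array (vertical axis, a scale of its own but equal span for each gene), with Sox17 f/f in blue and Sox17 ed/ed in red. Each point is 1 uterus, with replicates 1, 2 and 3 from the left. In each panel the 3 Sox17 ed/ed uteri lie above the 3 controls. Over all genes tested, the groups did not overlap, in either direction, for 40.6%.

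Genes past the test were found with and without an ERSE. The 9 members with an ERSE had a median log2 fold change of -0.14, from -0.28 for Hsp90b1 to 0.88 for Derl3, and 1 of 9 passed (11.1%). The 20 members with a matched promoter and no ERSE had a median of -0.11, and 2 of 20 passed (10.0%). Across the whole array, 19 tested genes held an ERSE and 3 of them passed. The share over all genes tested was 18.9%. No member's promoter held the unfolded protein response element TGACGTGG, which was in 0.714% of all genes and in 7 of 71 further ER genes, or the C/EBP-ATF response element TGATGNAAT, which was in 1.08% of all genes and in Aars, Fgf21, Gars and Nupr1 among 28 matched genes of the integrated stress response.

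The integrated stress response is the arm that PERK shares with other kinases of the same initiation factor, and ATF4 drives many of its genes. A list of 35 such genes outside the members was examined, and 34 were tested, all but Fgf21. Of the 34, 9 passed (26.5%, against 18.9% of all genes), 3 higher and 6 lower, with a median log2 fold change of -0.10. The stress-induced factor Atf3 gave 9.69, 9.44 and 9.63 in the Sox17 f/f uteri and 8.09, 8.27 and 8.26 in the Sox17 ed/ed uteri, well apart, and fell by 1.38 on the log2 scale (SE 0.09, adjusted p = 2.66e-04). Cebpb (11.90, 11.72 and 11.75 against 10.71, 10.82 and 10.86), a factor that pairs with ATF4 and CHOP, fell 1.99-fold (SE 0.08 on the log2 scale, adjusted p = 5.30e-04). Its relative Cebpg, named after its value was seen, fell by 0.36 (adjusted p = 0.0449), a call that did not hold without Sox17 f/f replicate 1, 2 or 3 or without Sox17 ed/ed replicate 2 or 3, nor with normexp, without a filter on low signal, in the ordinary linear model or with a replicate block.

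Genes of amino acid supply and translation within this list went both ways. Asns, which encodes asparagine synthetase, gave 12.78, 12.85 and 12.37 against 11.96, 11.96 and 12.09 and fell by 0.66 (adjusted p = 0.0203). The tryptophanyl-tRNA synthetase gene Wars gave 13.81, 13.55 and 13.58 against 13.09, 13.04 and 13.04 and fell by 0.59 (adjusted p = 0.00610). Ppp1r15a, whose product ends the translational block by removing the phosphate that PERK adds, gave 11.41, 11.65 and 11.26 against 10.89, 10.91 and 10.97 and fell by 0.52 (adjusted p = 0.0221). In each of these genes the controls lay above all Sox17 ed/ed uteri. The call on Asns was lost on leaving out any array but Sox17 f/f replicate 3 (adjusted p 0.0520 to 0.0731 in the 5 fits), and that on Ppp1r15a on leaving out Sox17 f/f replicate 1 or any Sox17 ed/ed array (0.0591 to 0.0742). With the replicate block their adjusted p was 0.0610 and 0.0602.

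Psat1, an enzyme of serine synthesis, rose by a log2 fold change of 1.12 (10.93, 11.04 and 10.93 against 12.02, 12.14 and 12.10; SE 0.07, adjusted p = 1.90e-04). Gdf15, which encodes a stress-induced cytokine, gave 5.53, 5.87 and 5.05 against 8.55, 8.77 and 8.28 and rose by 3.05 (SE 0.23, adjusted p = 4.14e-04). With normexp background correction, which adds an offset of 50 to every signal, its log2 fold change was 2.11. The cystine transporter gene Slc7a11 was not well above background on any control array (3.13, 2.91 and 3.07) and gave 8.39, 7.71 and 8.78 in the Sox17 ed/ed uteri. It was at least 25.5-fold higher there, taking the lowest signal well above background on each control array as the floor (adjusted p = 8.57e-05). This bound holds for the processed signal with quantile normalization, and with normexp and its offset the log2 fold change was 2.47. Atf4 itself and Ddit3 did not pass the test, while genes commonly placed below them passed in both directions.

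**Figure D5:**
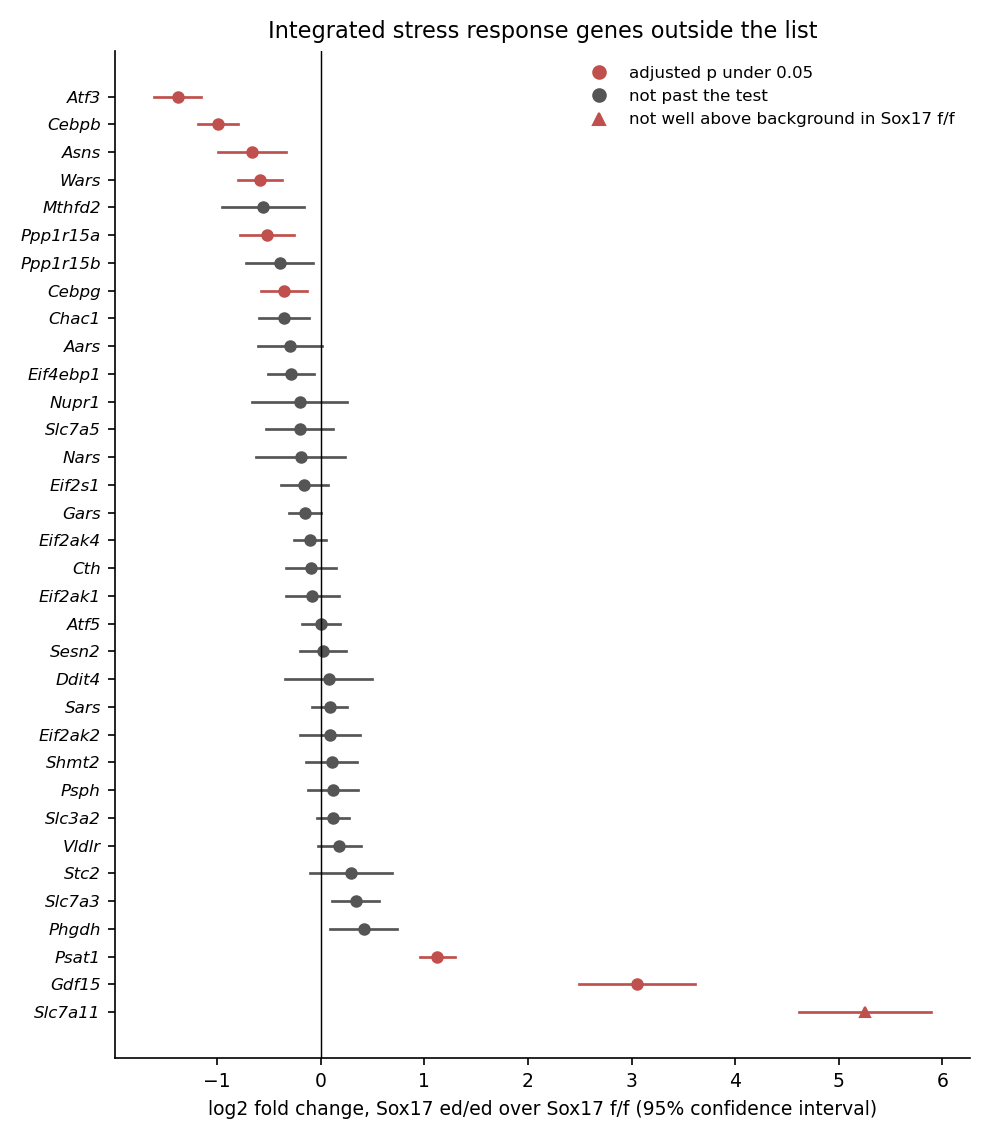
Log2 fold change (horizontal axis, Sox17 ed/ed over Sox17 f/f) of the 34 tested genes of the integrated stress response, ordered by value, with 95% confidence intervals from 3 arrays per genotype. Red marks an adjusted p under 0.05, and the triangle for Slc7a11 marks a gene not well above background in the controls, whose change is given as a bound in the text. Atf3 and Cebpb lie at the lower end, and Psat1, Gdf15 and Slc7a11 at the upper end.

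A second list held 86 further genes of ER folding, translocation, transport and degradation, of which 84 were tested, all but Fkbp11 and Agr3. Only 4 passed (4.76%, against 18.9% of all genes), with a median log2 fold change of -0.05. For 70 (83.3%, against 56.9% of all genes) the interval lay within 1.4-fold. The median pooled SD within genotype was 0.089 for the list and 0.121 over all genes. The groups did not overlap for 34 genes of the list (40.5%, against 40.6% of all genes). Wfs1, which encodes an ER membrane protein that restrains ATF6 signalling, gave 10.37, 10.43 and 10.38 in the Sox17 f/f uteri and 10.98, 10.99 and 11.21 in the Sox17 ed/ed uteri. The groups were well apart, and Wfs1 rose by a log2 fold change of 0.67 (SE 0.08, adjusted p = 0.00339), the only gene of the list past the thresholds of the methods. The other 3 were named after their values were seen. Erp44, an ER thiol protein that retains cargo, fell by 0.35 and the ubiquitin-conjugating enzyme gene Ube2g2 by 0.30, while the prolyl isomerase gene Fkbp2 rose by 0.23. On leaving out Sox17 f/f replicate 1, of these 4 only Wfs1 passed, and on leaving out Sox17 f/f replicate 2 only Wfs1 and Erp44 did, with 2 genes of the list passing in each case. Fkbp2 passed in none of the 6 omissions of 1 array, and Ube2g2 passed only without Sox17 f/f replicate 3 or Sox17 ed/ed replicate 2.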

How the data were processed

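The authors hybridised uterine RNA to 1-colour arrays and deposited the scanner output, whose intensity values (processed signal, background-subtracted and detrended within each array by Feature Extraction, version 11.0.1.1 in the file headers and 9.1 in the submitters' processing notes) carry no normalization between arrays. A deposited table of the same intensity values lay within 0.191% of their mean over spots. Samples were grouped by the genotype in their titles.

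Control spots and 169 to 302 outlier spots per array were left out. Log2 values were quantile normalized as the study's methods name, replicate spots were averaged to 1 value per probe, and a probe was kept if it stood well above background on 3 or more of the 6 arrays. The share of spots well above background was 60.7% to 65.7% on Sox17 f/f arrays and 56.8% to 59.4% on Sox17 ed/ed arrays, and no spot was saturated. Probes were named through RefSeq accessions (26582 of 55681 probes, 20145 genes), and each gene was represented by its brightest probe on average. Of the 35 members, 7 had over 1 probe, and no other tested probe of theirs passed the test. The array design is annotated on mm9, so coordinates are given for RefSeq promoters of GRCm38.p6 only. Differences were tested with limma 3.58.1 (lmFit, eBayes) in R 4.3.3 and adjusted by the Benjamini-Hochberg method over 14847 genes. The labels and methods give 3 separate uteri per genotype, and this number limits the precision. Tallies and plots used matplotlib 3.10.9, pandas 2.3.3, scipy 1.17.1 and numpy 2.4.6 under Python 3.11.15. The fit was tested on simulated data, where it recovered 23 of 66 genes changed by 0.5 on the log2 scale. It recovered 59 of 67 changed by 1 and 64 of 67 changed by 2. Changes near 0.5 can therefore miss the test.

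The members and the other lists (integrated stress response, further ER genes, and markers of uterine and glandular epithelium, squamous epithelium, stroma, smooth muscle, endothelium, macrophages and leukocytes, plasma and B cells, exocrine pancreas and mast cells) were chosen with earlier results of these data known. Values on each array are given for members past the test, for the sensors and main factors and for others that the text describes, and for genes of the stress response and further ER lists past the thresholds of the methods. All 6 arrays came from 1 slide and 1 scan, and each genotype filled its own line of the slide, so line and genotype cannot be told apart. Arrays with the same replicate number shared a column of the slide.

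The alternatives were a 75th percentile shift, normexp with an offset of 50 (on the median spot signal, since the files used here give no mean), no filter on low signal, a filter on all 6 arrays, averaging all probes of a gene, an ordinary linear model, an eBayes trend, the deposited table, a block for replicate number, a minimum fold of 1.4 beside the adjusted p, and leaving out each array.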

Additional observations from a re-analysis of the deposited data

How the results depend on the processing

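Derl3 passed the test in every alternative and in every omission of 1 array. The number of members past the test, 3, became 5 with the 75th percentile shift and with the eBayes trend (Xbp1 and Hsp90b1 added in both), and ran from 2 to 3 when 1 array was left out. Members past the thresholds of the methods numbered 1 with normexp, which leaves Derl3, and 2 to 3 when 1 array was left out. The 4 further ER genes became 2 with normexp, 8 with the eBayes trend and 2 to 4 when 1 array was left out. The 9 stress response genes ranged from 6 to 12, and from 6 to 10 without 1 array. The median log2 fold change of the members ran from -0.15 to -0.13, and from -0.17 to -0.06 without 1 array. The cause of these shifts was not tested.

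With the replicate number as a block, 1 member (Derl3) and 1 further ER gene (Wfs1) passed the test. Creb3l4 then had an adjusted p of 0.0595, Agr2 0.0620, Asns 0.0610 and Ppp1r15a 0.0602. Cebpg missed the threshold too. The labels state no shared origin for a number, but arrays of the same number lay in the same column of the slide, so the block is also a block for column. The correlations of same-numbered deviations were 0.0629, -0.114 and -9.52e-05, and no effect of column was tested apart from this fit. In the ordinary linear model Creb3l4 (0.0634), Asns (0.0735), Ppp1r15a (0.0686) and Cebpg also missed the threshold. Cebpg did so with normexp and with no filter on low signal as well. Normexp lowered the log2 fold change of Gdf15 from 3.05 to 2.11 and that of Slc7a11 to 2.47.

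Changes near 0 turned sign with normexp for Eif2ak3 (-0.015), Herpud1 (-0.0015) and P4hb (-0.0084), with the 75th percentile shift for P4hb (-0.021) and Sec61a1 (-0.043), and with the mean of the probes for Derl2 (0.053). Without 1 array the log2 fold change crossed 0 for Atf4 (-0.33 to 0.017), Calr (-0.065 to 0.038), Canx (-0.076 to 0.048), Creb3l1 (-0.12 to 0.026), Derl2 (-0.081 to 0.025), Eif2ak3 (-0.065 to 0.092), Herpud1 (-0.046 to 0.12), Manf (-0.070 to 0.15), Pdia4 (-0.25 to 0.014), Sdf2l1 (-0.066 to 0.21) and Sec61a1 (-0.043 to 0.14). A block for the slide could not be fitted, since there was 1 slide.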
